A study of Mus musculus with 7 samples.

Results

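Potassium channel genes were described in basal cells sorted from the lactating mouse mammary gland. They are the genes of the deposited table whose symbol is Kcn followed by letters and a number, with Kcnj8 left out, which comes to 91 of the 56440 genes listed. Measured values entered the rule only for 4 symbols with several rows, where the row with the highest mean was taken. By role, 30 encode voltage-gated pore subunits, 10 silent voltage-gated subunits that open only in company with others, 8 calcium- or sodium-activated pore subunits, 14 inward rectifiers, 14 tandem pore domain (K2P) leak channels and 15 auxiliary subunits. Gene expression was measured by RNA sequencing of cells sorted by flow cytometry from fresh glands at lactation day 2. Controls gave 4 libraries (genotype Ctrl, titled Blg negative), and mutants gave 3, lacking the laminin-binding integrin subunits α3 and α6 (genotype a3a6KO, titled Blg positive), and the submitters call them biological replicates. From what is known of the study, Blg marks a Cre driven by the beta-lactoglobulin promoter, which is active in the secretory luminal cells, so the sorted basal cells are neighbours of the cells meant to lose the integrins. Blg status and genotype cannot be told apart, since every mutant and no control carried Blg. The sources used here give no strain, age, alleles or sort markers. The question was whether basal cells differed beside a luminal layer without these receptors.

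Potassium channels let potassium leave the cell and so hold the membrane at a negative voltage. In myoepithelial cells, as in smooth muscle, oxytocin raises calcium and the cells contract, and potassium channels that open on calcium or on depolarisation return the membrane towards rest. Inward rectifiers and K2P channels set the resting voltage. In luminal cells, potassium channels also supply the electrical drive for salt and water secretion.

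Libraries held 9368418 to 21548279 recovered reads, where a recovered read is the smallest step of the deposited values. Those values are gene counts divided by 1 size factor per library, called normalised read counts here, and they are not corrected for gene length. All 10 basal markers were high, led by Acta2, the smooth muscle actin, at 460940 to 727850. Transcripts of the targeted genes were present in both groups, Itga3 at 465 to 719 in Ctrl and 494 to 818 in a3a6KO, and Itga6 at 7764 to 10603 and 8343 to 9083. Whole-gene values do not show whether single exons were deleted. Markers of other cell types were present too, and each of the 10 luminal and 10 endothelial markers was above 0 in every library. Some luminal values were high, with the milk protein gene Csn2 at 44720 to 431670. By library, the luminal markers summed to 104200 to 824410, against 859830 to 1161500 for the basal markers. In such mixed samples, fewer cells of a type and less RNA per cell cannot be told apart.

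The stretches of 250 bases before the transcription start are shown for 5 of the genes that the results turn on: Kcnk1, the highest per length, Kcnn4, with the highest coefficient of variation over the controls among the tested genes, Kcnj13 and Kcnq5, with the smallest p among higher and lower genes, and Kcnmb1, with the tightest controls. They come from RefSeq on GRCm38.p6, the build called mm10 in the deposited table, and overlap no annotated exon. Capitals mark the TEAD motif (GGAATG), the GC box (GGGCGG) and the TATA box (TATAAA) on either strand. In all, 66 of the 91 genes matched an entry. The entry nearest the deposited start was used, and it could lie far off, by 123396 bases for Kcnma1 and 239245 for Kcnip4. Some of the 66 stretches, such as that of Kcna6, lay wholly in annotated exons.
Kcnk1 (chr8:125994852-125995101, plus strand): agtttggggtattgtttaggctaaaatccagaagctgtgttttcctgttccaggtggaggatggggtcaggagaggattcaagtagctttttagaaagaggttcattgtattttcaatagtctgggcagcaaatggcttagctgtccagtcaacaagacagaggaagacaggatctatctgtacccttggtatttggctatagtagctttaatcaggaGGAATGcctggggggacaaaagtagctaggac
Kcnn4 (chr7:24370013-24370262, plus strand): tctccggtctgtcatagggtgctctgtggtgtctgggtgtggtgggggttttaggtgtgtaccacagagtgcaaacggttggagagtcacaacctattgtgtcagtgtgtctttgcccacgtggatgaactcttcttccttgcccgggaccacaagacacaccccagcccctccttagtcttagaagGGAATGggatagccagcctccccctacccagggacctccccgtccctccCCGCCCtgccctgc
Kcnj13 (chr1:87394730-87394979, minus strand): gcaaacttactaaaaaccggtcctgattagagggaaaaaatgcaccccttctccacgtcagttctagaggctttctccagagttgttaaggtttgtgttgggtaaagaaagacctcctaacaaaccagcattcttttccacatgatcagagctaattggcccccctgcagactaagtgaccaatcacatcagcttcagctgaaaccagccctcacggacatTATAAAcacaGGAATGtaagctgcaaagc
Kcnq5 (chr1:21962651-21962900, minus strand): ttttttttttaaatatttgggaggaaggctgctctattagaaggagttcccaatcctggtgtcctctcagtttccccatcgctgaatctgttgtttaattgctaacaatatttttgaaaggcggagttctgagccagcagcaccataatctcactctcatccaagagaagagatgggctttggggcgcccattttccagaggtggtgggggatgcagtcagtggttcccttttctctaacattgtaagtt
Kcnmb1 (chr11:33962763-33963012, plus strand): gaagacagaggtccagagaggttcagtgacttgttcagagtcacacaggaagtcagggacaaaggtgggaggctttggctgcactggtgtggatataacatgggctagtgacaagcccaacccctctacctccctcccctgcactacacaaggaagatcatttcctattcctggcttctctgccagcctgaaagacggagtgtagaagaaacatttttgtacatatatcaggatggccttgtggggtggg
Over the 66 matched stretches, 12 held the TEAD motif (18.2%, against 12.6% of the 32851 stretches of this length in the table), 31 the GC box (47.0% against 32.7%) and 2 the TATA box (3.03% against 12.4%). The STAT motif (TTCNNNGAA) was in 5 (7.58% against 7.02%) and the CArG box, the element of smooth muscle genes, in 0 (1.47% of all stretches). The stretches of Kcnq5 and Kcnmb1 held none of these 5 motifs. Kcnj13 was the 1 tested gene with a TATA box, which ends 24 bases before the start counting the base next to it as 1, followed by a TEAD motif ending at 14. A match is a description of letters, and its absence says nothing of a factor. The 66 stretches were richer in G and C, with a median of 58.8% against 52.4% over all stretches, which bears on the GC box and TATA box shares. They are also 1 per gene, while the 32851 stretches belong to 27025 genes.

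Potassium channel transcripts were a small part of the libraries, and a few genes made up most of them. The 91 genes summed to 9463 to 11613 in Ctrl and 9755 to 11301 in a3a6KO; the means were 10603 ± 1026 (SD, n = 4) and 10329 ± 846 (SD, n = 3), or 0.0596% to 0.0742% of all values. The 5 genes with the highest means gave 73.8% of the sum. Of the 91, 71 were above 0 in some library and 36 in all 7, 32 were tested, having reached 10 or more in 3 or more libraries, and 11 had a mean of at least 100. The other 39 genes above 0 had means of at most 9.52. K2P channels gave 26.4% of the sum, calcium- or sodium-activated subunits 24.5%, auxiliary subunits 18.4%, inward rectifiers 17.4%, voltage-gated subunits 12.6% and silent subunits 0.671%. All of these are shares of read counts, in which long genes weigh more, and they do not rank the roles by number of transcripts. Kcnma1, with 12916 exon bases, is among the calcium- or sodium-activated subunits.

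The 20 genes with no read in any library were spread over 5 of the 6 roles. They included Kcna10, Kcnb2, Kcnc1, Kcnh5, Kcnh6, Kcnh7 and Kcnq3 among voltage-gated subunits, the silent Kcns2 and Kcnv1, the inward rectifiers Kcnj3, Kcnj5, Kcnj6 and Kcnj11, the K2P genes Kcnk9, Kcnk10, Kcnk15, Kcnk16 and Kcnk18, and the auxiliary Kcne1. A count of 0 allows up to 3 reads, a normalised read count of 2.27 to 5.34 depending on the library, counting error only. Kcnq3, a subunit of the neuronal M-current, was thus not detected, while its relative Kcnq5 was.

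Levels of different genes were compared per kilobase of merged exons (GENCODE M21). Kcnk1, a K2P leak channel also called TWIK-1, was the highest at 996 per kilobase over the 7 libraries, with library values of 745 to 1252. It did not overlap the next gene, Kcnip3, at 298 to 443. Kcnip3, Kcnj13 and Kcnj2 followed with means of 353, 284 and 259 per kilobase, and their ranges overlapped. Kcnma1, Kcnmb1 and Kcnn4 had 171, 156 and 150, Kcnh1 104, Kcnk5 77.0 and Kcnq5 36.8. The order of these 10 was the same with the longest coding transcript as length.

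**Figure D1:**
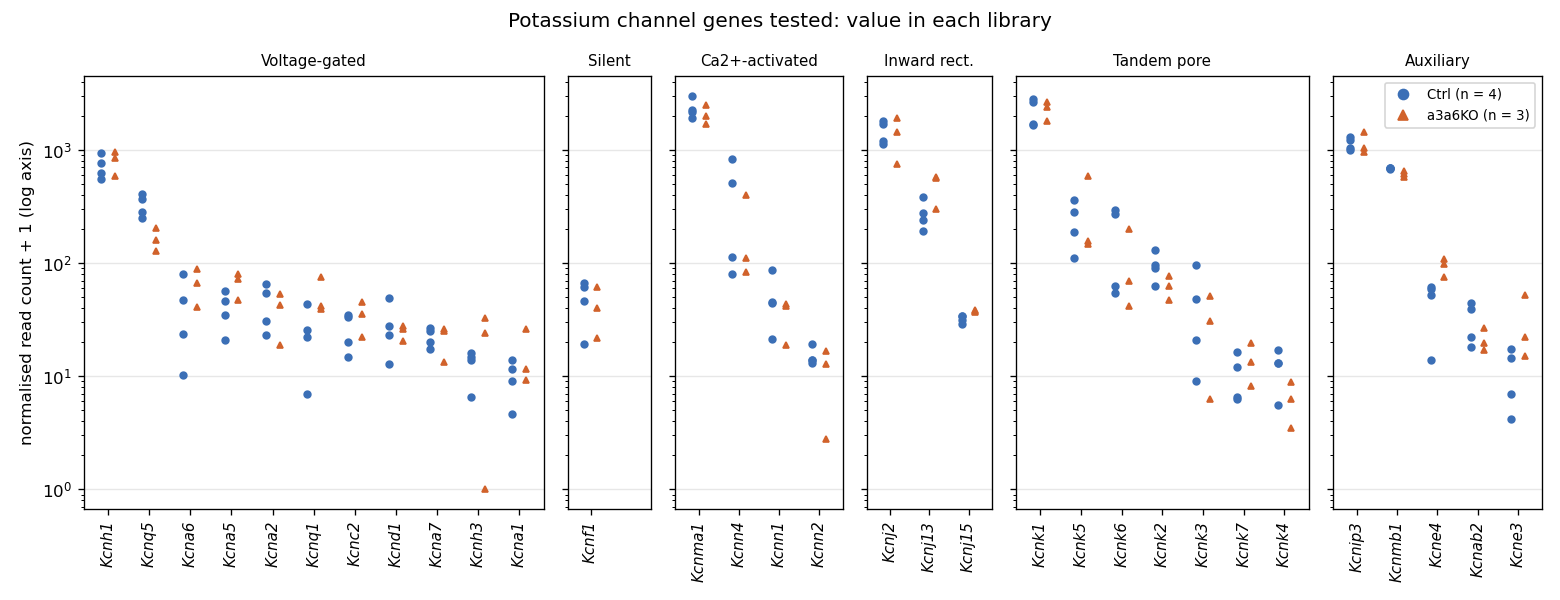
Normalised read count plus 1 (log axis) of the tested potassium channel genes, all but 1 of the 32, grouped by role, with 1 point per library (circles Ctrl, n = 4; triangles a3a6KO, n = 3). The groups do not overlap in 4 genes, and Kcnn4, Kcnk6 and Kcnk3 spread widely within both groups.

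No potassium channel gene differed between a3a6KO and Ctrl at an adjusted p under 0.05 in limma, as no gene did over the 16889 tested (0% called). Of the 32 genes, 14 had a log2 fold change above 0 (43.75%, against 49.5% of all genes), with a median of −0.07 against −0.0040 for all genes. By unadjusted limma p, 4 of the 32 genes (12.5%) were under 0.05, against 6.32% of all genes, with 3 higher in a3a6KO (3.55% of all genes) and 1 lower (2.78%). By the same measure edgeR had 2 higher and 1 lower of 35 (5.98% of all genes in either direction) and DESeq2 3 and 3 of 71 (4.03%). Kcnj13, Kcne4 and Kcne3 were the higher genes and Kcnq5 the lower. The 3 became 0 without a3a6KO replicate 2 and 1 without Ctrl replicate 1 or a3a6KO replicate 1, and the 1 lower gene became 2 without Ctrl replicate 3 or 4. The groups did not overlap in 4 of the 32 genes (12.5%, against 7.51% of all genes), Kcne4 and Kcnj15 (higher, as in 4% of all genes) and Kcnq5 and Kcnmb1 (lower, as in 3.51%). The 95% interval of the log2 fold change was wider than 2 in 18 of the 32, and it held 0 in 28.

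**Figure D2:**
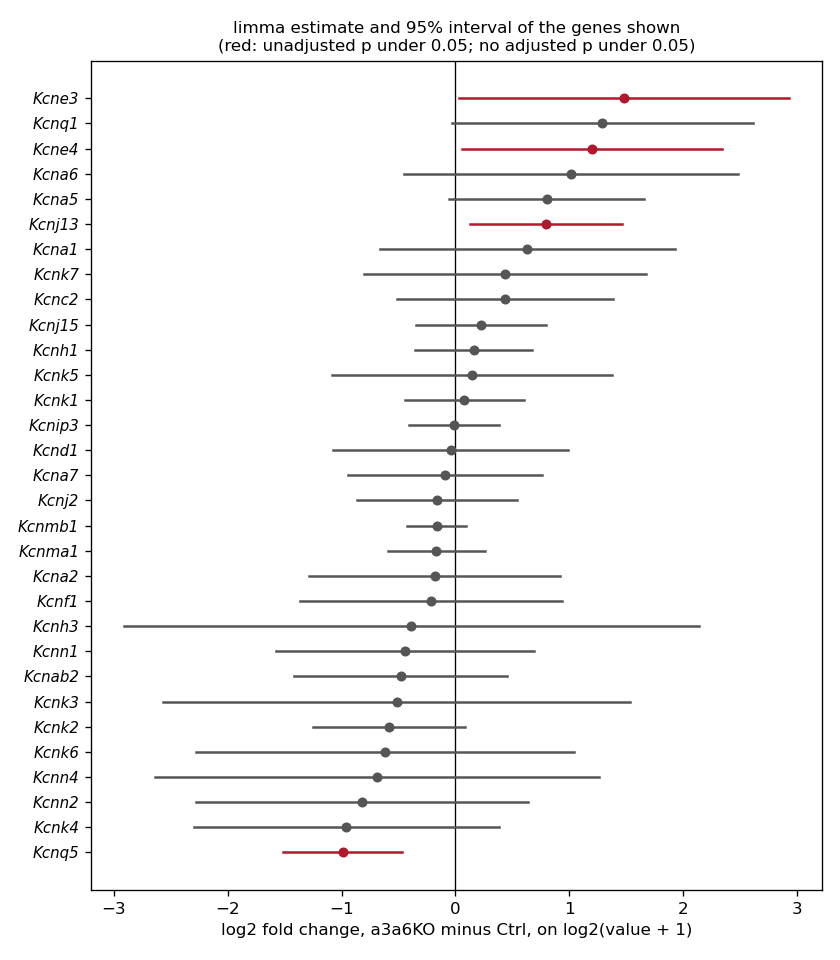
Log2 fold change of the tested genes, all but 1 of the 32, a3a6KO minus Ctrl, with its 95% interval from limma on log2(value + 1). Kcnq5 lies at −0.99 with an interval below 0, Kcnj13, Kcne4 and Kcne3 have intervals above 0, and no gene had an adjusted p under 0.05.

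Kcnq5 encodes a slowly opening voltage-gated subunit of the M-current family, found in smooth muscle and neurons. The gene (GSMG0001375, chromosome 1, 21398399 to 21962650, mm10, minus strand) reached 407, 248, 370 and 283 normalised reads in the controls, replicates 1 to 4, against 204, 128 and 160 in the mutants, replicates 1 to 3. Each mutant library lay below each control. Means were 327 ± 73.9 (SD, n = 4) and 164 ± 38.1 (SD, n = 3), which gave a log2 difference of −0.99 (SE 0.23, 95% interval −1.51 to −0.47, limma adjusted p = 0.551). The estimate was −1.16 without a3a6KO replicate 1 to −0.82 without a3a6KO replicate 2. DESeq2 on recovered reads gave an adjusted p of 0.0522 when run on all genes above 0 (0.41% called) and of 0.0444 when run on the genes limma tested (0.483% called), and edgeR 0.590. Over all 15 alternatives the adjusted p ran from 0.0444 to 0.97. An annotated antisense gene shares 237 of the 6980 exon bases of Kcnq5, and reads of both strands cannot be told apart, since the strand setting is not known here. The same limit holds for 10 of the 32 tested genes in all, among them Kcna6 (2355 of 5836 bases), Kcnma1 (1016 of 12916), Kcnk2, Kcnj15 and Kcnn2, and with shorter stretches Kcnk1, Kcnn1 and Kcnq1.

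The 12 tested voltage-gated subunits, Kcnq5 included, split in direction, with 7 above 0. Their median on the log2 scale was 0.30. Kcnh1, an ether-à-go-go channel, was the highest of them by read count, with 549, 936, 621 and 756 in the controls and 960, 848 and 591 in the mutants. The groups overlapped over most of their ranges (0.16, SE 0.23). Kcnq1, the epithelial and cardiac relative of Kcnq5, had 6.02, 21.0, 24.8 and 42.4 in the controls and 74.6, 38.2 and 40.9 in the mutants, where 1 control reached into the mutant range (1.29, SE 0.59, limma adjusted p = 0.785). The Kcnq1 estimate was 0.78 without Ctrl replicate 1. The Shaker family genes Kcna5, Kcna1 and Kcna6 lie side by side on chromosome 6 (126532553 to 126740674), and all 3 had estimates above 0, at 0.80 (SE 0.38), 0.63 (SE 0.57) and 1.014 (SE 0.65). Kcna6 ran from 9.18 to 79.2 in Ctrl and from 39.8 to 88.3 in a3a6KO, and Kcna5 from 20.1 to 55.1 and from 46.3 to 79.1. Most of the Kcna6 level in Ctrl came from replicates 1 and 2, and its fold change was 0.48 without Ctrl replicate 3. Kcna1 and Kcna5 were named after their values were seen. Kcna2 (17.8 to 64.3), Kcnc2 (13.8 to 43.9), Kcnd1 (11.9 to 48.2) and Kcna7 (12.5 to 25.9) overlapped between groups. For Kcnh3 the mean was higher in a3a6KO (18.3 against 11.8) while the log2 fold change was −0.39, since a3a6KO replicate 3 was at 0. Of the silent subunits only Kcnf1 was tested, with 18.4 to 66.3 in Ctrl and 20.7 to 60.7 in a3a6KO (−0.21, SE 0.51, and 0.18 without a3a6KO replicate 1). Kcns3 (2.01 to 24.9) and Kcng2 (1.62 to 13.2) were next and missed the filter of the main test.

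The calcium-activated BK channel was represented by its pore and its smooth muscle β subunit. Kcnma1, the pore (GSMG0012118, chromosome 14, 23298694 to 24127601, minus strand), had 3005, 1895, 2230 and 2151 in the controls and 2479, 1700 and 2007 in the mutants. Ctrl replicate 1 was the highest library and the groups overlapped (−0.17, SE 0.19, 95% interval −0.59 to 0.26). A second entry of the same symbol inside the gene, averaging 44.1, was left out by the rule, and adding it moved no call. Kcnmb1, the β1 subunit that raises the calcium sensitivity of the pore (GSMG0005027, chromosome 11, 33963013 to 33973638, plus strand), had 679, 684, 687 and 689 in the controls and 650, 612 and 576 in the mutants. All mutant libraries lay below all controls. The means were 685 ± 4.44 (SD, n = 4) and 613 ± 36.6 (SD, n = 3), which gave a log2 difference of −0.16 (SE 0.11, 95% interval −0.42 to 0.10, limma adjusted p = 0.833). The SD of the controls was below the 24.4 that counting single reads would give on its own, so the control values were unusually close. The part of this closeness in the lack of overlap was not tested. The other β subunit genes were near the floor, with means of 1.73 for Kcnmb2, 0.78 for Kcnmb3 and 0.24 for Kcnmb4. Small-conductance channel genes were low, with Kcnn1 at 20.4 to 86.4 in Ctrl and 17.8 to 42.3 in a3a6KO (−0.44, SE 0.50) and Kcnn2 at 12.1 to 18.2 and 1.78 to 15.7 (−0.82, SE 0.64). Kcnn1 was at −0.05 without a3a6KO replicate 3. The 1.78 of Kcnn2 was 1 recovered read in a3a6KO replicate 3, and the other mutant libraries had 15.7 and 11.9. All 4 calcium- or sodium-activated genes tested had estimates below 0, where 49.5% of all genes had estimates above 0, and none passed.

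Among inward rectifiers, Kcnj2 (Kir2.1), a classical setter of resting voltage, was the most abundant by read count. It had 1205, 1676, 1782 and 1122 in the controls and 1916, 1433 and 744 in the mutants, so that the mutants held both the highest and the lowest library (−0.16, SE 0.31, turning to 0.23 without a3a6KO replicate 3). Kcnj13 (Kir7.1), best known from epithelia of eye and choroid plexus, differed more. The gene (GSMG0051121, chromosome 1, 87384577 to 87394729, minus strand) had 191, 241, 386 and 275 in the controls and 566, 570 and 299 in the mutants. Replicates 1 and 2 of a3a6KO lay above all controls, and replicate 3 within their range. Means were 273 ± 82.6 (SD, n = 4) and 478 ± 155 (SD, n = 3), which gave a log2 difference of 0.79 (SE 0.29, 95% interval 0.12 to 1.46, limma adjusted p = 0.724). Kcnj13 lies inside an intron of Gigyf2 on the opposite strand. Likewise Kcne4 and Kcne3, described below, lie inside introns of Gm29536 and Gm34821 on the opposite strand. Kcnj15 had 28.1 to 33.3 in Ctrl and 35.6 to 37.3 in a3a6KO, close but not overlapping (0.23, SE 0.25, limma adjusted p = 0.892). Its control SD of 2.48 was also under the 5.22 expected from counting single reads.

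Auxiliary subunits were led by Kcnip3 (KChIP3, also known as DREAM or calsenilin), a calcium-binding partner of Kv4 channels and a transcriptional repressor. It had 994 to 1299 in Ctrl and 961 to 1428 in a3a6KO, averaging 1139 ± 149 (SD, n = 4) and 1140 ± 252 (SD, n = 3). Its log2 fold change was −0.01 (95% interval −0.40 to 0.38), with a sign that turned on leaving out single libraries. The Kv4 pore genes were low, with Kcnd1 averaging 25.7, Kcnd3 2.03 and Kcnd2 0.14. Kcne4, a small membrane subunit that dampens Kv channels (GSMG0000462, chromosome 1, 78816910 to 78820026, plus strand), had 13.1, 51.7, 60.6 and 57.5 in the controls and 74.6, 97.6 and 107 in the mutants. Every mutant library lay above every control, and Ctrl replicate 1 was far below the others. The log2 fold change was 1.20 (SE 0.50, 95% interval 0.06 to 2.34, limma adjusted p = 0.768), and 0.69 without Ctrl replicate 1. Kcne3, a partner of Kcnq1 in epithelia, had 6.02, 3.23, 16.5 and 13.6 in the controls and 14.1, 51.4 and 21.4 in the mutants. The groups overlapped and a3a6KO replicate 2 stood highest (1.48, SE 0.64, limma adjusted p = 0.774, and 0.98 without that library). Kcnab2, a cytoplasmic β subunit, had 16.97 to 43.2 in Ctrl and 16.01 to 25.7 in a3a6KO (−0.48, SE 0.41).

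**Figure D3:**
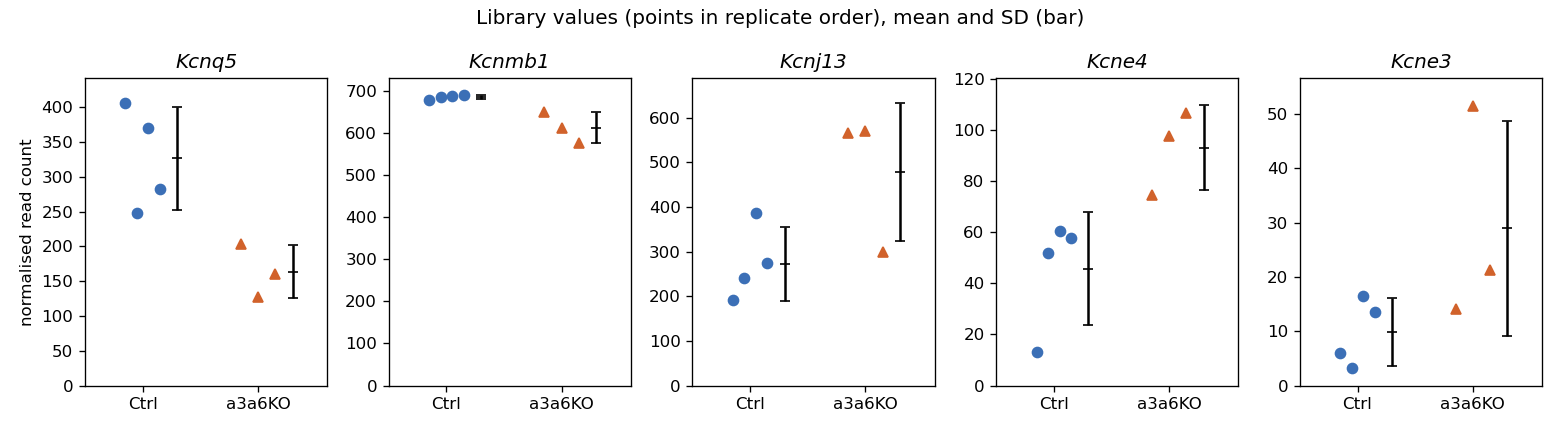
Normalised read counts of Kcnq5, Kcnmb1, Kcnj13, Kcne4 and Kcne3, 1 point per library (circles Ctrl, n = 4; triangles a3a6KO, n = 3), with mean and SD as a black bar, each on its own axis from 0. The groups do not overlap for Kcnq5, Kcnmb1 and Kcne4, and Kcnmb1 controls sit between 679 and 689.

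The a3a6KO libraries, all above the controls for Kcne4, were also above them for endothelial transcripts. The summed endothelial markers were 4103, 5222, 4596 and 7026 in the controls and 9091, 11485 and 12584 in the mutants. All 10 had an estimate above 0 (49.5% of all genes), of which DESeq2 called 7 (0.41% of all genes) and limma 0. Pericyte and vascular smooth muscle markers summed to 4135, 2949, 3777 and 5058 in the controls and 3673, 5254 and 5007 in the mutants, and 8 of 9 tested had an estimate above 0. Red blood cell markers summed to 25.1, 190, 242 and 359 in the controls and 640, 787 and 612 in the mutants, again without overlap, and DESeq2 called Hba-a1 (log2 fold change 2.50). The part of these cells in the values of channel genes with estimates above 0, among them Kcne4, Kcne3, Kcnj13, Kcnj15, Kcnq1 and Kcna5, was not tested.

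K2P channels held the most abundant potassium channel gene by length and some of the most variable ones. Kcnk1 had 1677, 1665, 2799 and 2621 in the controls and 2380, 1797 and 2642 in the mutants, averaging 2191 ± 604 (SD, n = 4) and 2273 ± 433 (SD, n = 3). Its log2 fold change was 0.08 (SE 0.23), and it turned to −0.04 without Ctrl replicate 1 or 2 or a3a6KO replicate 3. Kcnk2 (TREK-1), a stretch-sensitive leak channel, had 95.4, 129, 89.97 and 61.3 in the controls and 76.2, 62.0 and 46.3 in the mutants, overlapping between 61.3 and 76.2 (−0.58, SE 0.30, limma adjusted p = 0.789). Kcnk4 (TRAAK), another mechanosensitive member, was low, at 4.59 to 16.1 in the controls and 2.49 to 7.91 in the mutants. It entered the test through 3 control libraries alone, with no mutant library reaching 10, so its lower estimate supports nothing. Kcnk7 had 5.30 to 15.4 and 7.12 to 18.5.

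Kcnn4, Kcnk6, Kcnk5, Kcnk3 and Kcnk1 were highest in the same 3 libraries, Ctrl replicates 3 and 4 and a3a6KO replicate 3, the 5 of the 32 tested genes of which this held. They are grouped here after their values were seen. The share of all tested genes that were highest in these 3 libraries was not counted. The 5 of 32 therefore does not show whether channel genes had this pattern more often than other genes. Kcnn4 (KCa3.1), the intermediate-conductance calcium-activated channel of secretory epithelia and immune cells, had 111, 79.2, 506 and 837 in the controls and 109, 81.8 and 400 in the mutants. Those 3 libraries were several times above the others. Kcnk6 (TWIK-2) had 61.3, 53.3, 268 and 291 in the controls and 40.6, 68.6 and 197 in the mutants. Kcnk5 (TASK-2), a channel of transporting epithelia, had 110, 188, 279 and 362 in the controls and 154, 146 and 589 in the mutants. Kcnk3 (TASK-1) had 20.1, 8.08, 94.6 and 46.9 in the controls and 29.8, 5.27 and 49.8 in the mutants. In Kcnk1, whose values stand above, the gap to the next library was small (2621 against 2380). For the other 4 genes the log2 fold changes were −0.69 (SE 0.86), −0.62 (SE 0.73), 0.15 (SE 0.54) and −0.51 (SE 0.91), all with intervals on both sides of 0. Kcnk5 turned to −0.51 without a3a6KO replicate 3, −0.17 without Ctrl replicate 1 and −0.21 with library weights.

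The summed luminal markers were highest in the same 3 libraries, with 195000, 136210, 634590 and 824410 in the controls and 104200, 169070 and 364960 in the mutants. The milk protein genes Csn2, Wap and Csn3 carried most of that sum. By single gene, 7 of the 10 luminal markers were highest in these 3 libraries, and the keratins Krt8, Krt18 and Krt19 were not, with Krt8 at 9479 to 17769 in the controls and 7953 to 11240 in the mutants. Immune markers, which summed to 211, 301, 900 and 725 in the controls and 382, 491 and 865 in the mutants, were also highest there as a sum, and 5 of 10 by single gene, with the T cell marker Cd3e at 0 in 5 of 7 libraries. Basal markers ran from 859830 to 1161500 as a sum, and 1 of 10, Krt17, was highest in these 3 libraries. The part of luminal or immune cells in the values of Kcnn4, Kcnk6, Kcnk5, Kcnk3 and Kcnk1 was not tested.

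**Figure D4:**
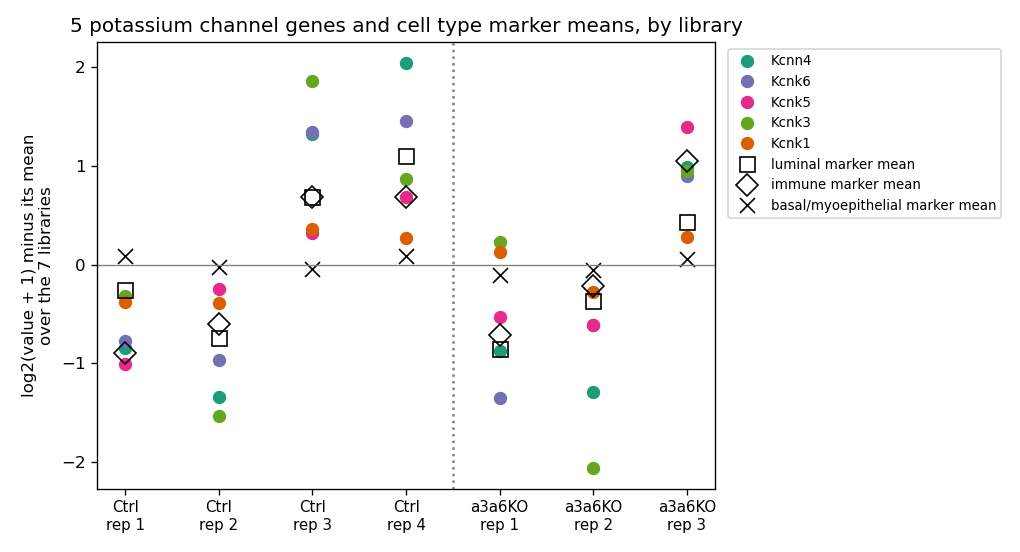
Log2(value + 1) of Kcnn4, Kcnk6, Kcnk5, Kcnk3 and Kcnk1 in each library, minus the gene's mean over the 7 libraries, beside the mean of the tested luminal (10), immune (4) and basal (10) markers treated alike. Ctrl replicates 3 and 4 and a3a6KO replicate 3 lie above 0 for the 5 genes and for luminal and immune markers, and basal markers stay close to 0.

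Genes that move potassium or work beside its channels gave 0 adjusted limma calls in 4 lists, as in all genes. Over all genes, 49.5% had an estimate above 0, the share to set beside the count of each list. Of the Na+/K+- and H+/K+-ATPase genes, 12 of 17 were tested and 7 had an estimate above 0. The β subunits Atp1b3, singled out after its values were seen (1367 to 1747 and 1916 to 2044, 0.33, SE 0.12), and Atp1b2 (11.3 to 23.9 and 29.8 to 46.2, 1.11, SE 0.36) did not overlap between groups, with limma adjusted p = 0.727 and 0.673. The pump regulator Fxyd3 had 2738 to 3119 and 3070 to 4111 (0.30, SE 0.14).

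Of the cation-chloride cotransport genes and their kinases, 7 of the 11 found were tested, 3 above 0. Slc12a2 (NKCC1), which loads potassium and chloride into cells, had 475 to 705 in Ctrl and 286 to 633 in a3a6KO (−0.39, SE 0.26), the kinase Stk39 389 to 588 and 340 to 431 (−0.22, SE 0.18), the kinase Oxsr1 124 to 164 and 93.6 to 129 (−0.37, SE 0.20) and the cotransporter Slc12a7 30.3 to 54.9 and 49.7 to 110 (0.72, SE 0.33). Among channel partners outside the Kcn names, 7 of 15 were tested and 5 were above 0. Hcn4, a pacemaker channel, had 9.08 to 18.1 in Ctrl and 19.9 to 28.5 in a3a6KO (0.84, SE 0.38, limma adjusted p = 0.785). The sulphonylurea receptor Abcc9 had 15.6 to 67.3 and 33.1 to 58.7 (0.63, SE 0.50), and the lysosomal potassium channel Tmem175 549 to 623 and 555 to 700 (0.05, SE 0.13). The intracellular channel Tmem38b had 135 to 215 and 175 to 222 (0.22, SE 0.20).

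Calcium and chloride channels had 11 of 21 genes tested, 5 above 0. Cacna1g, the pore of a T-type calcium channel, had 96.4, 87.3, 89.1 and 113 in the controls and 150, 202 and 231 in the mutants. Every mutant library exceeded every control. Its log2 fold change was 0.99 (SE 0.21, limma adjusted p = 0.515), and DESeq2 called it (adjusted p = 0.0232). It was the 1 gene of these 4 lists that DESeq2 called, where 0.41% of all genes were called. Cacnb3, a β subunit of voltage-gated calcium channels, had 1776, 1376, 1078 and 812 in the controls and 638, 814 and 726 in the mutants, with a narrow overlap (−0.74, SE 0.25, limma adjusted p = 0.685). The chloride channel Ano1, which opens on calcium, had 5528 to 8856 and 5624 to 6489 (−0.19, SE 0.19), and the scramblase Ano6 2941 to 3890 and 3461 to 3788 (0.08, SE 0.13).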

How the data were processed

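RNA from 4 Ctrl and 3 a3a6KO sorted basal cell samples was sequenced from SMARTer v4 libraries, per the labels' protocols. The deposited values are a signal: gene counts divided by the authors with 1 DESeq2 size factor per library, per the title of the deposited table. STAR 2.4.0 and build mm10 are named in the submitters' processing notes. The sources used here do not name the counter, its strand setting or its annotation.

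Groups came from the genotype label. Replicate numbers follow deposition order and pair nothing. For 4 symbols with several rows the row with the highest mean was used. All values above 0 were whole multiples of 1 step per library within 0.01 (100%), which gave recovered reads. Even numbers made up 61.8% to 63.8% of the counts from 1 to 20, so these may not all be independent reads, and intervals and floors cover counting error only.

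Groups were compared by limma 3.58.1 under R 4.3.3, with its mean-variance trend, on log2(value + 1). It took the 16889 genes that reached 10 or more in 3 or more libraries, two-sided, with Benjamini-Hochberg adjustment over all of them and a threshold of 0.05. Fold changes are on this scale. The p-values set the difference between groups against the spread between these samples, which limma draws towards its trend over all genes tested. For low genes the added 1 shrinks changes, while a single library near 0 can enlarge them. Compared with DESeq2 on all genes above 0, estimates were larger in size for Kcne4 (1.20 against 1.00) and Kcna6 (1.01 against 0.706). For Kcnk4 the estimate was smaller in size (−0.96 against −1.15). Alternatives were a pseudocount of 8, no filter, quantile normalization, library weights, summed rows, edgeR 4.0.16 and DESeq2 1.42.0 on recovered reads, and leaving out each library. DESeq2 on the genes limma tested was added after the data were seen. The limma, edgeR and DESeq2 fits were tested on simulated counts.

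The members and lists were chosen with earlier results of these data known. The rule for named genes took up to 3 members per role by level, all at an unadjusted p under 0.05, up to 4 per direction by smallest p and up to 8 per direction without overlap of the groups, which gave 22 genes. It took up to 2 genes per other list by p and up to 2 by level. Others are given by value. Some genes that it took are not reported here.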

Additional observations from a re-analysis of the deposited data

How the results depend on the processing

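Of the 20 named genes tested, 15 kept their sign in all alternatives run (8 that leave out no library and 7 that leave out 1). For Kcnq5, Kcne4, Kcnmb1 and Kcnj15, whose groups do not overlap, leaving out a library could not turn the sign. Other genes were named for a small p in these same data, so the count is no measure of robustness. A kept sign can also lie near 0, as for Kcnh1 (0.0137 without a3a6KO replicate 1). Kcnq5 was the 1 named gene past an adjusted p of 0.05 in any, and only with DESeq2 on the genes limma tested (−0.99, adjusted p = 0.0444), where 1 channel gene passed instead of 0. That alternative was added after the data were seen. The count of genes at an unadjusted p under 0.05 was 5 higher and 4 lower with no filter, where 71 channel genes were tested, and 3 lower with DESeq2 on all genes above 0. Leaving out 1 library gave 0 to 4 higher and 1 to 2 lower, and 0 adjusted calls. The median log2 fold change of the channel genes turned to 0.077 with no filter, 0.016 with library weights, 0.046 with edgeR, 0.043 with DESeq2 and 0.101 without a3a6KO replicate 3 (−0.12 to 0.101 over the left-out libraries). Library weights turned Kcnip3 to 0.0165, Kcnj2 to 0.076 and Kcnk5 to −0.213, and DESeq2 on the limma genes gave 0.00011 for Kcnip3. Leaving out 1 library gave −0.185 to 0.101 for Kcnip3, −0.457 to 0.225 for Kcnj2, −0.607 to 0.184 for Kcnf1, −0.041 to 0.237 for Kcnk1 and −0.509 to 0.492 for Kcnk5. The cause of these turns was not tested. Kcnk4 gave no value without Ctrl replicate 1, 2 or 4, as it then missed the filter. No paired analysis was possible because the labels give no shared replicate numbers. Of the 32 tested genes 17 had a mean under 50, and in 29 the control SD was above that of counting reads alone. Depth sets the limit for genes at 0, up to 2.27 to 5.34 normalised reads by library.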

Other observations

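Kcn symbols outside the rule had similar levels in both groups. Kcnq1ot1, the long noncoding RNA of the imprinted Kcnq1 region, had 368, 424, 243 and 294 in the controls and 244, 392 and 343 in the mutants (log2 fold change −0.02, SE 0.24). Kcne1l, an auxiliary subunit also called Kcne5, had 25.9 to 44.2 and 29.8 to 37.4 (0.0035, SE 0.30). Kcnrg, a regulator of potassium channel assembly, had 5.02 to 16.5 and 5.27 to 10.7 and missed the filter of the main test.

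Among the channel genes under the filter on low values, Kcnc4, a fast voltage-gated subunit, had 4, 4, 2 and 6 recovered reads in Ctrl and 0 in each a3a6KO library, and the inward rectifier Kcnj14 had 0, 12, 8 and 10 in Ctrl and 0 in each a3a6KO library. They were singled out after their values were seen and were not in the main limma test, having missed its filter. The runs without that filter included both genes, and their estimates there are not reported here. Among the a3a6KO libraries at 0 are the 2 least deeply sequenced of the 7 and also replicate 1, with 18454773 recovered reads.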
